A study of Mus musculus with 6 samples.

Results

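The let-7 and miR-98 family is a set of small regulatory RNAs (microRNAs, miRNAs) that share nearly the same guide sequence. Its members were taken by name, as every mouse entry of the deposited table called let-7 (a to k) or miR-98, with both arms of each hairpin and all copies. These were 23 entries with 22 distinct sequences, of 1963 distinct mouse sequences in all. The study sequenced small RNA of livers from mice that had received AAV9, an adeno-associated virus. In the Cre-miR122 group the label of the vector is AAV-Tnnt2-Cre-miR122, and in the Cre group it is AAV-Tnnt2-Cre, so Cre recombinase and the promoter of the cardiac troponin gene Tnnt2 are common to both. That promoter is used to drive expression in heart muscle, while the RNA came from liver. The sources used here do not give strain, age, sex or dose. The labels name 3 libraries of each group, and the counts of 1 of them, Cre-miR122 replicate 2, were analysed. The other 5 libraries were not analysed here, so no difference between Cre-miR122 and Cre was tested, and whether the vector affects the family cannot be told from these values.

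A miRNA is cut from a hairpin precursor whose 5′ and 3′ sides give the 5p and the 3p arm. The guide arm is usually kept in an Argonaute protein and pairs with mRNAs through its seed, bases 2 to 8. The family was found through let-7 of the worm Caenorhabditis elegans, where it times development, and in mammals its level is high in differentiated tissues. LIN28 proteins block the maturation of let-7 precursors, and Lin28, Hmga2, Myc and Ras mRNAs are known targets. The balance of LIN28 proteins and let-7 is known for its part in growth and glucose handling.

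The mature 5p sequences are shown because the family is defined by them, with the seed in capitals. They are credited to RefSeq (GRCm38.p6), in which all 22 member sequences were found, and run 5′ to 3′ in the order of their reads.
mmu-let-7f-5p: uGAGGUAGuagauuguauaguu
mmu-let-7i-5p: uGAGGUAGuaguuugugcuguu
mmu-let-7g-5p: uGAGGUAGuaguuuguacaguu
mmu-let-7a-5p: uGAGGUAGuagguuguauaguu
mmu-let-7c-5p: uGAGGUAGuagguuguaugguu
mmu-let-7d-5p: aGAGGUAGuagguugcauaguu
mmu-let-7b-5p: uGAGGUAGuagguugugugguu
mmu-let-7e-5p: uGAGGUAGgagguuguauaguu
mmu-miR-98-5p: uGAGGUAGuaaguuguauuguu
mmu-let-7k: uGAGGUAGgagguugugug
mmu-let-7j: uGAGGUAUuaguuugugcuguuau
The seed was the same in 10 of these 11 sequences, and let-7j, whose seed ends in another base, was the exception. Outside the seed the members differ at few positions, counted from 1 at the 5′ end against let-7a-5p. let-7f-5p carries G12A, let-7c-5p A19G and let-7e-5p U9G. let-7b-5p carries A17G and A19G, and let-7g-5p G12U and U18C. let-7d-5p carries U1A and U16C, and is the only one of the 11 that starts with A. miR-98-5p carries G11A and A19U. let-7i-5p is the farthest of the 22-nt sequences, with G12U, A17G, U18C and A19U.

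The library held 8163802 reads over the distinct sequences of the table, which covers all species, and 6661069 of these were counted for mouse sequences. Its miRNAs included all 4 hepatocyte markers looked at, with 62.6% of mouse reads in sum. Most of this was miR-148a-3p at 57.9%, and miR-122-5p held 3.54%. The vector label of this group names miR122, so any miR-122-5p reads from the vector cannot be told apart from those of the liver. All 4 striated muscle markers were also present, with 15.8% in sum, most of it miR-1a-3p at 14.7%, followed by miR-206-3p at 1.03%. miR-126a-3p of endothelium had 59356 reads. Of the red cell markers miR-144-3p had 3 reads and miR-451a 305, and of the leukocyte markers miR-142a-3p had 25 and miR-223-3p 42. All these counts are of mouse entries alone. With entries of other species that differ from them by their ends alone, miR-126a-3p had 132245 reads and miR-122-5p 685639. miR-144-3p then had 7, miR-451a 2635, miR-142a-3p 146 and miR-223-3p 63. let-7 is made in many cell types, and which cells of the sample gave its reads was not tested. Intervals in parentheses are exact Clopper-Pearson 95% intervals for shares, and exact 95% intervals given the sum of both counts for ratios. They cover the counting of reads in 1 library only, not the spread between animals, and PCR copies were counted as reads.

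The family held 506951 reads, 7.61% of mouse reads (7.59 to 7.63). Summed by seed over the mouse entries, it was the third of the seed families of mouse miRNAs, with 7.59% on the 5p arms. The miR-148 seed family had 58.1% and the family of miR-1a-3p and miR-206-3p had 15.8%. Next after the let-7 seed came miR-122-5p with 3.54% and miR-381-3p with its seed partner at 2.89%. This order turned when entries of other species that differ from a mouse entry by their ends alone were added to every family. The let-7 seed family then had 581509 reads, or 7.23% (7.21 to 7.25), and came after miR-122-5p with 685639 reads, or 8.52% (8.50 to 8.54). By the mouse entries, the top sequence of the miR-148 and miR-1a families made up 99.7% and 93.4% of the reads, while let-7f-5p made up 45.7% of the let-7 seed family. In that respect it was close to the miR-30 seed family, where miR-30a-5p made up 44.5%. They were less close with the added entries of other species. miR-30a-5p then had 119722 of the 223134 reads of its seed family, and let-7f-5p 273271 of 581509. The only other mouse miRNA with the let-7 seed, miR-1961, is not a member of the family by name and had 0 reads.

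Among the 5p arms 3 members carried most of the family. let-7f-5p had 231073 reads, which is 3.47% of mouse reads (3.46 to 3.48) and rank 4 of all mouse sequences. let-7i-5p had 111173 reads or 1.67% (1.66 to 1.68), and let-7g-5p had 91306 or 1.37% (1.36 to 1.38). Together the 3 held 85.8% of the family's 5p reads (85.7 to 85.9). A middle pair followed, let-7a-5p with 33087 reads or 0.497% of mouse reads and let-7c-5p with 26908 or 0.404%. The other 4 were lower, let-7d-5p with 4368 reads or 0.0656%, let-7b-5p with 3857 or 0.0579%, let-7e-5p with 2187 or 0.0328% and miR-98-5p with 1287 or 0.0193%. let-7f-5p thus had 179.5 times the reads of miR-98-5p. let-7k had 1 read, and let-7j had 0, with an exact interval that reaches 5.5e-05% of mouse reads. The floor used here, 3 reads, is 4.5e-05% of mouse reads.

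**Figure D1:**
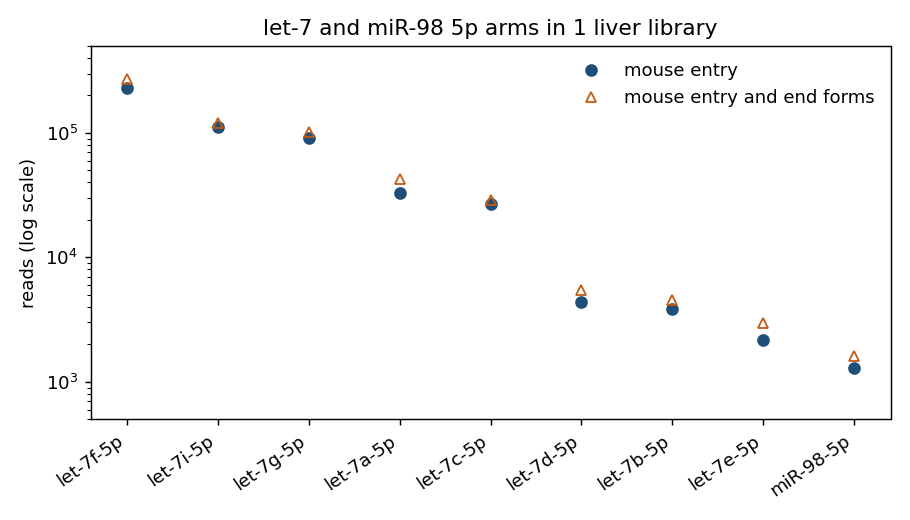
Reads of the 9 main 5p arms in the 1 library, on a log scale. Filled circles are reads of the mouse entry and open triangles add its end forms, and the order of the 9 members is the same by both, from let-7f-5p at 231073 reads to miR-98-5p at 1287 by the mouse entry.

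Neighbours in this order differed by more than counting error at each step. The narrowest steps were let-7d-5p over let-7b-5p, with 1.13 reads per read (1.08 to 1.18), let-7i-5p over let-7g-5p with 1.22 (1.21 to 1.23) and let-7a-5p over let-7c-5p with 1.23 (1.21 to 1.25). The widest step among the 9 was let-7c-5p over let-7d-5p, at 6.16 (5.97 to 6.36). let-7f-5p had 2.08 reads per read of let-7i-5p (2.06 to 2.09). Whether another liver would give the same order was not tested, and adapter ligation favours some ends and sequences, so an order of reads is not an order of molecules.

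Of the pairs among the 9 members, 4 are 1 base apart, given here as the change from the higher to the lower. The lower member had 14.3% of the reads of the higher for let-7a-5p against let-7f-5p (A12G), 81.3% for let-7c-5p against let-7a-5p (A19G), 14.3% for let-7b-5p against let-7c-5p (A17G) and 6.61% for let-7e-5p against let-7a-5p (U9G). Beside these stand 11 entries of other species that had reads and are 1 base away from a mouse 5p member without being mouse sequences. A form of let-7a-5p with U22A, at the last base, had 136 reads or 0.411% of the reads of let-7a-5p (0.345 to 0.486). A form of let-7f-5p with G2A, a change in the seed, had 48 reads or 0.0208% of let-7f-5p (0.0153 to 0.0275). A form of let-7f-5p with A17G had 30 reads or 0.013%. A form of miR-98-5p with A11C had 1 read, and the other 7 had 1 to 23 reads each. The lowest of the 4 member pairs, at 6.61%, was thus above the highest of these 11 forms, at 0.411%. How many reads of a member are misread reads of another was not tested.

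Reads with other ends were looked up in the entries of other species that are nested with a mouse member, that is, contained in it or containing it. Such end forms with reads numbered 29 sequences with 76714 reads, and 76262 of these reads were on 5p arms. Counted with them, let-7f-5p had 273271 reads, let-7i-5p 119448, let-7g-5p 102399, let-7a-5p 42818, let-7c-5p 29036, let-7d-5p 5425, let-7b-5p 4526, let-7e-5p 2969 and miR-98-5p 1616. The order of the 9 members did not change. Most 5p end form reads, 93.9%, ended 1 base before the mouse entry. That share depends on which ends the entries record. For let-7f-5p, this form, with 42198 reads, was the only end form with reads. let-7a-5p, for which a longer form is also recorded, had 5784 reads ending 1 base early and 3507 with 1 more base. How 3′ ends are spread was therefore not measured. Only 2 end forms of the whole family, with 73 reads, began at another base. Of these, 71 reads were a form of let-7i-5p with 1 more base at its 5′ end, which moves the seed by 1 position. A form with another start is seen where an entry records that start, which on the 5p arms was the case with reads for let-7i alone, so how constant the start of the 5p arms is was not measured.

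For all 9 members the table has an entry that ends 1 base early, so the share of this form could be given for each. Other ends are recorded for some members and not for others, and whether reads with unrecorded ends went to a near entry is not known, so the shares need not rest on like totals. Its share of the reads of both forms was lowest for let-7i-5p at 6.44% (6.30 to 6.58) and let-7c-5p at 7.33% (7.03 to 7.63). let-7g-5p had 10.8% (10.64 to 11.03). let-7b-5p with 14.8% (13.8 to 15.8) and let-7a-5p with 14.9% (14.5 to 15.2) did not differ beyond counting error. let-7f-5p, at 15.4% (15.3 to 15.6), was above let-7a-5p and within the interval of let-7b-5p. The share was 17.99% for let-7d-5p (16.96 to 19.05), 20.4% for miR-98-5p (18.4 to 22.4) and 26.1% for let-7e-5p (24.5 to 27.7), and the intervals of let-7d-5p and miR-98-5p overlapped. The 9 mature sequences all end in UU, so the base removed and the new last base are the same in each. Over 51 other mouse sequences with such an entry and at least 1000 reads over both forms, the share ran from 0.0519% to 93.1% with a median of 20.99%. Some of these passed the limit only through the early form, which favours high shares. The highest, miR-27a-3p, had 137 reads by its mouse entry and 1853 ending 1 base early. The upper end and the median of the others thus depend in part on this limit. The median of the 9 members was 14.9%, and 19 of the 51 others lay within the range of the members.

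**Figure D2:**
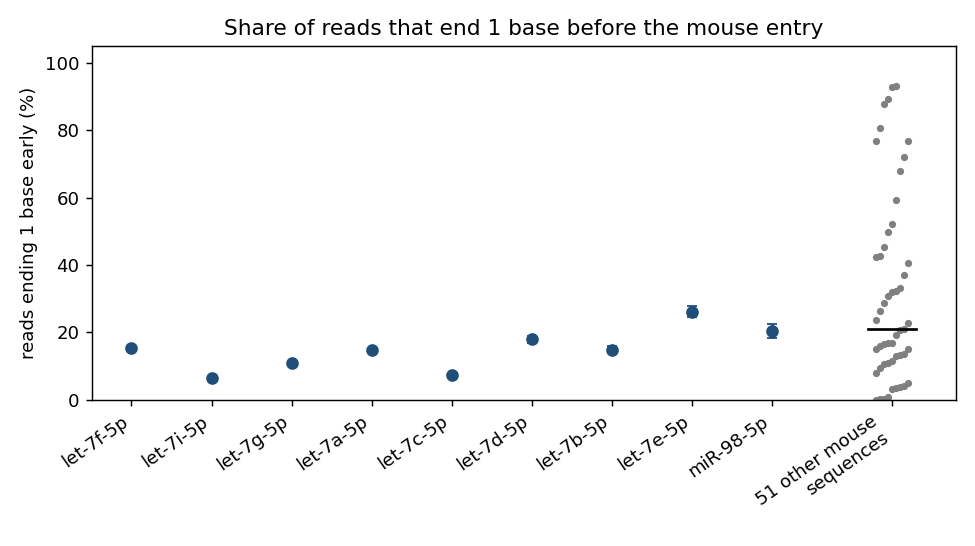
Percentage of reads that end 1 base before the mouse entry, out of both forms, for the 9 5p members (points with exact 95% intervals) and for 51 other mouse sequences (grey points, with their median of 20.99% as a line). The members lie between 6.44% for let-7i-5p and 26.1% for let-7e-5p, and the other sequences, which are more in number, between 0.0519% and 93.1%. The other sequences were kept at 1000 reads over both forms, so some entered only through the early form.

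Longer forms were rarer, and the table records them for few members. let-7a-5p with 1 more U had 3507 reads, 8.19% of the reads of its arm with end forms (7.93 to 8.45), and that base is in both let-7a hairpins. let-7i-5p with 1 more G had 388 reads, or 0.325% (0.293 to 0.359), and that base is in its hairpin too. A form of let-7d-5p with 2 more bases had 41 reads and one of let-7e-5p had 11. The entry of the mouse held 93.1% of the reads of its arm for let-7i-5p, the highest of the 9, and 73.7% for let-7e-5p, the lowest.

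The 3p arms were far lower, with 1704 reads against 505247 on the 5p arms, a ratio of 296.5 5p reads per 3p read (282.7 to 311.1). A single arm, let-7d-3p, made up 94.9% of these 3p reads (93.7 to 95.9) with 1617 reads. The other 10 sequences of 3p arms had 87 reads in sum, or 211 with end forms. The sequence shared by let-7a-1-3p and let-7c-2-3p had 27 reads, let-7e-3p 25, miR-98-3p 20 and let-7c-1-3p 12. let-7f-1-3p, let-7g-3p and let-7i-3p had 1 read each, and the mouse entries of let-7b-3p, let-7a-2-3p and let-7f-2-3p had 0. With end forms all 11 sequences had reads.

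**Figure D3:**
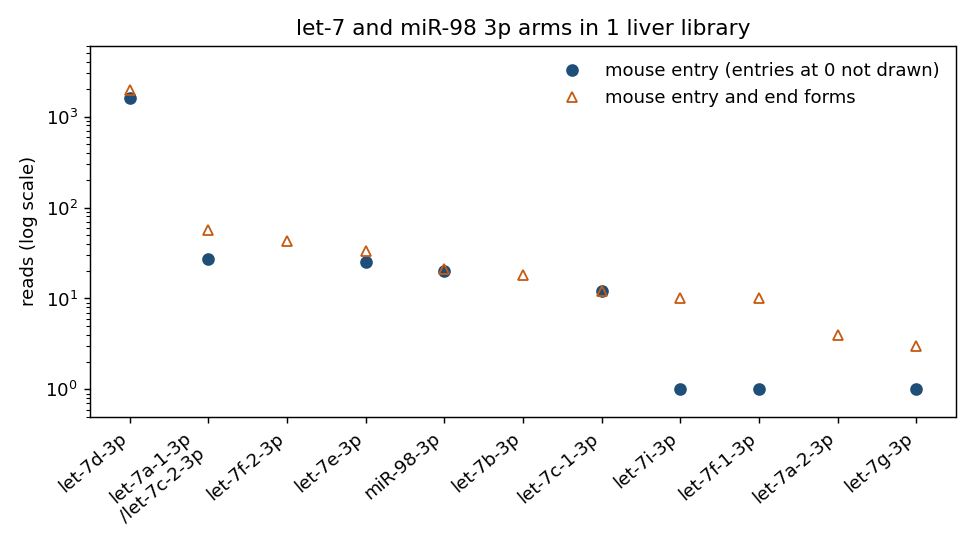
Reads of the 11 distinct 3p sequences of the family on a log scale, by the mouse entry (filled circles, drawn only where above 0) and with end forms (open triangles). let-7d-3p, at 1617 reads, stands above all others, which reach at most 57 reads with end forms.

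let-7d was the member whose arms came closest in reads. let-7d-5p had 4368 reads and let-7d-3p 1617, or 2.70 5p reads per 3p read (2.55 to 2.86), and 2.79 (2.65 to 2.94) with end forms. Its hairpin, Mirlet7d (ENSMUSG00000065453.1), lies on the minus strand at chr13:48536012-48536114 of GRCm38. It is shown with both arms in capitals.
Mirlet7d: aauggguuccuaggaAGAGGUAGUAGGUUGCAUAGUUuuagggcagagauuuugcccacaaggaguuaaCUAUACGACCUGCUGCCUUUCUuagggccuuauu
The arm let-7d-3p carries the seed UAUACGA, which differs from that of let-7d-5p.

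In the other members the 5p arm prevailed widely. let-7f had 231073 5p reads and 1 3p read, let-7i 111173 and 1, and let-7g 91306 and 1, and a single 3p read leaves these ratios wide, at 41472.6 to 9126940 for let-7f, 19952.9 to 4391140 for let-7i and 16387.2 to 3606430 for let-7g. let-7a had 1225 5p reads per 3p read (842.1 to 1860) and let-7c had 689.9 (504.6 to 970.5), with the 27 reads that both share counted for each. let-7e had 87.5 (59.1 to 135.5) and miR-98 64.3 (41.5 to 105.7). let-7b had 3857 5p reads and 0 3p reads by its mouse entries, which gives no ratio. With end forms the ratio was 5156 for let-7f (3942 to 6883), 11945 for let-7i (6495 to 24910) and 34133 for let-7g (11679 to 165517). These rest on 53, 10 and 3 3p reads. The ratio was 701.9 for let-7a, 420.8 for let-7c, 89.97 for let-7e and 76.95 for miR-98. For let-7b it was 251.4 (158.9 to 424.7) with 18 3p reads, and 54.5 (43.9 to 68.6) when 65 more 3p reads with another last base, described further on, were added. The like form of let-7f-2-3p is already among the end forms of let-7f and gives 43 of its 53 3p reads. Leaving out let-7d, the family had 5757 5p reads per 3p read (4667 to 7188) by the mouse entries and 2730 (2386 to 3140) with end forms, so this ratio depends on how ends are counted.

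Over the 137 mouse miRNAs with both arms listed and at least 100 reads, the 5p arm had at least 10 times the reads of the 3p arm in 45.3%. This was so in 8 of the 9 family members, all but let-7d. In 50 of the 137 the 3p arm prevailed by at least 10 times, and in 25, or 18.2%, neither arm did. let-7d was 1 of these 25, so arms less than 10 times apart were uncommon but not particular to it.

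**Figure D4:**
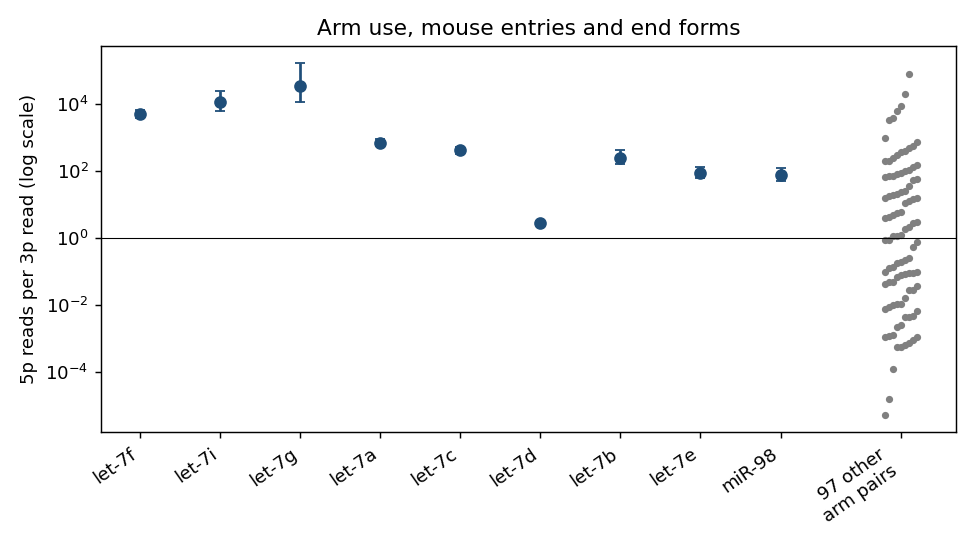
Reads of the 5p arm per read of the 3p arm, with end forms, on a log scale, for 9 members (points with exact 95% intervals) and for 97 other mouse arm pairs with reads on both arms (grey points). The line marks equal arms. let-7d lies at 2.79, while the other 8 members lie between 77.0 for miR-98 and 34133 for let-7g. The 65 reads of let-7b-3p with another last base are not included, and with them let-7b would lie at 54.5.

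The 12 hairpins of the 9 members lie in 8 places of the genome, several of them shared. On chromosome 13, Mirlet7a-1, Mirlet7f-1 and Mirlet7d lie within exons of the long noncoding RNA 6720427I07Rik on the minus strand, with 261 bases between the first pair and 1714 between Mirlet7f-1 and Mirlet7d. On chromosome X, Mirlet7f-2 and Mir98 lie 785 bases apart in introns of Huwe1, a ubiquitin ligase gene. On chromosome 15, Mirlet7c-2 and Mirlet7b lie 621 bases apart in exons of the noncoding Lncppara. Mirlet7c-1 lies on chromosome 16 in an intron of the noncoding Mir99ahg and, on the opposite strand, of Gm11146, 656 bases from Mir99a. Mirlet7a-2 lies in introns of the noncoding 3110039I08Rik and Gm49317 on chromosome 9, 5211 bases from Mir100, and Mirlet7e in an intron of Spaca6 on chromosome 17, 367 bases from Mir125a and 98 from the nearest mature arm of Mir99b. Mirlet7g, in an intron of Wdr82, and Mirlet7i, in an exon of a pseudogene, have no other member nearby, and Mirlet7g lies 24626 bases from Mir135a-1. let-7j and let-7k have hairpins of their own on chromosomes 3 and 5, in no other annotated gene. let-7i-5p and let-7g-5p, each from 1 hairpin, had more reads than let-7a-5p and let-7c-5p, each from 2. Members from 1 place also differed in their reads. On chromosome 15, let-7b-5p had 3857 reads and let-7c-5p 26908, of which an unknown part came from chromosome 16.

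The copies of let-7a, let-7c and let-7f give the same 5p sequence and can be told apart by their 3p arms alone, so the part of each copy in the 5p reads was not measured. Even the 3p arms do not separate let-7a-1 from let-7c-2, whose sequence is the same. Among 3p reads of let-7a with end forms, the sequence of let-7a-1 and let-7c-2 had 57 reads and that of let-7a-2 had 4, a share of 93.4% for the shared sequence (84.1 to 98.2). Among those of let-7c, the shared sequence had 57 and let-7c-1 had 12, or 17.4% for let-7c-1 (9.32 to 28.4). By the mouse entries the shared sequence had 27 and let-7c-1 12, or 30.8% for let-7c-1 (17.0 to 47.6). No entry records let-7c-1-3p ending 1 base early, as 1 does for the shared sequence, so end forms were not counted on equal terms. For let-7f the mouse entries held 1 read in all, from let-7f-1. With end forms let-7f-1-3p had 10 reads and let-7f-2-3p 43, so let-7f-2 held 81.1% (68.0 to 90.6). The 43 reads all belong to 1 form with another last base, and the table has no such form for let-7f-1, so the copies were not counted on equal terms.

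That form is shown with its last base in capitals, beside the hairpin of let-7f-2 with the arms in capitals, and beside the like form of let-7b-3p. Mirlet7f-2 (ENSMUSG00000065602.1) lies on the plus strand at chrX:151912346-151912428 of GRCm38.
Mirlet7f-2: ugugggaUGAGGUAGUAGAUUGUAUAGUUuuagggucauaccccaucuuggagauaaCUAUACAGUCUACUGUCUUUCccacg
let-7f-2-3p as in the hairpin: cuauacagucuacugucuuucC
let-7f-2-3p as counted: cuauacagucuacugucuuucU
let-7b-3p as in the hairpin: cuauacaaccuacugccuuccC
let-7b-3p as counted: cuauacaaccuacugccuuccU
Both carry C22U against the hairpin. For let-7f-2-3p the form with U had 43 reads, and neither the 22-nt form of the hairpin nor the 21-nt form had any. For let-7b-3p the form with U had 65 reads, the 21-nt form 18 and the 22-nt form of the hairpin 0, so the form with U held 78.3% of the 3 forms (67.9 to 86.6). These were the only 3p arms of the family for which the table lists a form with C22U. let-7d-3p, miR-98-3p and let-7i-3p have U at base 22 in the hairpin itself. The 22-nt entries had more reads than the forms that end 1 base earlier for let-7d-3p, with 1617 against 328, and for miR-98-3p, with 20 against 1, but not for let-7i-3p, with 1 against 7. The letters of the 65 let-7b-3p reads are nested with no mouse entry, so they are not in the end form counts above, in which let-7b-3p had 18 reads.

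Most of the 12 hairpins of the 9 members share a feature outside their arms. The members were chosen by a family name and are alike in sequence, so their hairpins are not independent cases. GGAG, the 4 letters through which LIN28 is known to bind let-7 precursors, was searched in the 15 bases before the 3p arm, on the strand of the hairpin. It was found in 9 of the 12 hairpins of the members and in 7.23% of 692 such windows of mouse hairpins in RefSeq. The hairpins without it in this window were Mirlet7c-2, Mirlet7b and Mir98. The match is a description of letters, and binding was not measured. The arms were 23 to 36 bases apart, with the shortest distance in Mirlet7a-2, Mirlet7c-1 and Mirlet7e, each at 23.

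The miRNAs that lie beside let-7 hairpins had levels of their own. On 5p arms, miR-100-5p had 18091 reads, miR-99b-5p 9101, miR-99a-5p 2916, miR-125b-5p 854 and miR-125a-5p 90, and with end forms 26234, 9101, 48058, 2343 and 1592. let-7e-5p, with 2187 reads or 2969 with end forms, was above its neighbour miR-125a-5p and below its other neighbour miR-99b-5p by both counts. The 3p arm of let-7a-2, with 0 reads or 4 with end forms, stood beside miR-100-3p with 2, or 3, and miR-125b-1-3p with 93, or 147. That of let-7c-1 had 12 reads, beside 0 of miR-99a-3p. miR-135a-5p and miR-135a-1-3p, from the hairpin nearest to that of let-7g, had 0 reads each, or 6 and 0 with end forms.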

How the data were processed

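The deposited table gives raw counts of reads of 1 cleaned small RNA library for each entry of a list of mature miRNAs of all species, per the file headers. Per the labels' protocols, adapters were ligated to both RNA ends, followed by PCR, size selection and single-end sequencing, and no molecular identifiers are named. The counting program, with settings, and the list's release were not given in the sources used here. Per the submitters' processing notes the build is mm10, the assembly that GENCODE M21 and the RefSeq table (GRCm38.p6) describe. The library column matched the title of Cre-miR122 replicate 2 alone, and 0 columns were without a match.

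Of 48885 entries, 30721 sequences were distinct, each counted once, and identical sequences had equal counts (0 exceptions). In all 9 main members the 21-nt form had fewer reads than the 22-nt entry that contains it, so reads of the longer entry were not also counted for the shorter. Whether reads with ends that no entry records were given to a near entry is not known. Shares are of the mouse sum. Sequences are printed with U for T. End forms were other-species entries with a let-7 or miR-98 name, contained in or containing a mouse member.

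Members, lists and alternatives were chosen with earlier results of these data known. The text names all members, their end forms with most reads, the neighbouring miR-99, miR-100 and miR-125 miRNAs, the top 5 seed families and marker miRNAs. The miR-30 seed family, miR-135a and the forms with C22U were named after their values were seen. In the comparison of forms that end 1 base early, a form that precedes several mouse sequences was given once, to the one with most reads. Intervals and the assignment of end forms were tested on simulated data. Alternatives were other denominators, end forms, end forms with the same start and summed near sequences. The software was Python 3.11.15 with SciPy 1.17.1, NumPy 2.4.6, pandas 2.3.3 and, for plots, matplotlib 3.10.9.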

Additional observations from a re-analysis of the deposited data

Results flagged for a closer look

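Entries of other species named let-7 or miR-98 that are nested with no mouse sequence had 360 reads over 14 sequences, above the floor of 3 reads, in data outside the counts of the members. The highest were the let-7a-5p form with U22A at 136 reads and the let-7b-3p form with C22U at 65. Of the 14, 12 were 1 substitution away from a member, and the source of these reads was not tested.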

How the results depend on the processing

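The family's share of mouse reads, 7.61%, was 6.21% of the sum over all sequences, 18.1% without miR-148a-3p in the total, 7.26% with end forms, 7.29% with end forms of the same start and 7.27% without end forms nested with several mouse sequences. It stayed within its interval with sequences of at least 10 reads. The share of let-7f-5p in the 5p reads, 45.7%, was 46.99% with end forms and 47.0% with those of the same start. The 5p reads per 3p read of the family, 296.5, were 269.7 and 269.9 under the same alternatives. let-7f-5p over let-7i-5p, 2.08, was 2.29 with end forms, an alternative added after seeing the data, and 2.67 when members 1 substitution apart were summed, since let-7f-5p then stood with 4 others. Also added after seeing the data, end forms for every seed family moved that of let-7 to rank 4 from 3, at 7.23% against 7.59% by the mouse entries, and the ratio outside let-7d to 2730. Over the 9 members, 16 of 18 alternative shares of the 5p reads moved beyond counting error, as the added reads imply. Leaving out the form with C22U, also added after seeing the data, let-7f-2-3p had no reads and the 10 3p reads of let-7f were all from let-7f-1. No end form of a member was nested with more than 1 member sequence, so splitting them over members changed nothing, except that dividing the sequence shared by let-7a-1 and let-7c-2 evenly gave let-7a-1 87.5% of let-7a 3p reads. Tests between the groups, other tools, filters and leaving out replicates were not run with 1 library. No paired analysis was possible because the groups share no replicate numbers and only 1 of the 6 libraries entered. Depth limits the 3p arms, most of which had under 60 reads.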
